A study of Oryza sativa with 4 samples.

Results

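The genes described here are the listed genes of rice chromosome 6, on which the flowering-time gene *Hd1* lies. They are the 185 probe sets, out of 57194 on the array, whose locus name begins with LOC_Os06g in the available rows of the study's supplementary gene listing, without *Hd1* itself (LOC_Os06g16370), *Hd3a* (LOC_Os06g06320) and *RALFL28* (LOC_Os06g29730). A probe set is a group of short probes meant for 1 transcript, and the 185 probe sets stood for 185 different loci. Of the 185, 36 had names ending in _s_at or _x_at, which mark probes that can match several genes. The number at the end of a locus name rises along the chromosome, so it gives the order of the genes. Reference tables placed 123 of the 185 on chromosome 6, 60 had no gene in the platform table, and 2 (LOC_Os06g04230 and LOC_Os06g11830) were placed on chromosomes 3 and 10.

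Leaf RNA was measured in the japonica cultivar Zhonghua11 as wild type, and in *hd1-3*, a line with sequence changes in *Hd1* that remove its function and with flowering that does not follow the day length. Plants were 35 days old and were kept at 28 °C. Short days (SD) had 11.5 h of light and 12.5 h of dark, with leaves taken 3 h after light. Long days (LD) had 15 h of light and 9 h of dark, with leaves taken 5 h after light. Each of the 4 groups was measured on 1 Affymetrix array, so no fold within a day length had a replicate check, and day length cannot be told apart from the hour of harvest. The sources used here do not say where else the genomes of *hd1-3* and Zhonghua11 differ.

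*Hd1* codes for a B-box and CCT domain transcription regulator, the rice relative of Arabidopsis CONSTANS. It is known for promoting flowering in short days and delaying it in long days, through florigen genes such as *Hd3a*, which also lies on chromosome 6. Neighbouring genes on a chromosome are inherited together, and many rice gene families sit in tandem copies beside each other.

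The listing gives the study's own comparisons of *hd1-3* with wild type, and the rule by which its rows were chosen is not known here. The members may thus have been chosen by the measure reported here. Their folds are therefore a description, with no test, and nothing is read from how many were called. A fold is the log2 ratio of *hd1-3* to wild type after adding 1 to each signal, and a gene is called past 2-fold where the brighter array of that pair reached a signal of 100. Below that the arrays are noisy: over all probe sets other than the members, the SD and LD folds of a probe set scattered around each other by 1.14 (log2) where its mean signal was 50 to 100, by 0.59 at 100 to 500 and by 0.33 at 500 to 5000. Where a signal lay below 100, a bound is given with such signals raised to 100, a floor chosen here.

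On the arrays as a whole, the median signal ranged from 63.7 to 69.7 and the mean after trimming 2% from each end was 500 on each. Of the 9 leaf marker probe sets (chlorophyll a/b-binding proteins and the Rubisco small subunit), 7 were at 100 or more on every array, with signals up to 49297, and 2 were below 100 throughout. Their summed signal was 208270 and 193349 in wild type and 214096 and 196280 in *hd1-3*, SD then LD. All 7 seed storage probe sets (glutelins and prolamin) stayed below 100. The 5 floral probe sets summed to 867 and 1319 in wild type and 924 and 1409 in *hd1-3*. Among them *OsMADS1*, a floral organ gene, was at 71.7 and 21.9 in wild type against 296 and 237 in *hd1-3*. In the other direction, *OsMADS4* went from 124 and 131 in wild type to 50.2 and 76.8 in *hd1-3*. *OsMADS16* went from 661 and 1145 to 537 and 1047. *OsMADS3* and *OsMADS6* were below 100 on every array. The 3 root probe sets (nitrate transporters and the silicon channel gene *Lsi1*) summed to 887 and 911 in wild type and 1090 and 739 in *hd1-3*. The ratio of 3′ to 5′ signal of the GAPDH control, a sign of RNA integrity, was 1.64 and 1.48 in wild type and 4.16 and 4.25 in *hd1-3*, while those of actin, cyclophilin and ubiquitin ranged from 0.627 to 4.46 with no such gap between genotypes. The part of *OsMADS1* and of the GAPDH ratio in the results below was not tested.

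Under SD condition 72 of the 185 members were past 2-fold, 35 higher and 37 lower in *hd1-3*. A bright array of the SD pair was found for 153 members, and of all 26087 such probe sets 9.94% were called. Under LD condition 62 members were past 2-fold, 32 higher and 30 lower. A bright array of the LD pair was found for 158 members, and of all 26165 such probe sets 8.39% were called. In both day lengths with the same direction there were 36, which was 25.2% of the 143 members with both pairs bright, beside 2.53% of all 24119 such probe sets. Of these 36, *hd1-3* was above wild type in 18 and below it in 18, beside 1.22% and 1.31% of all probe sets. A single member went past 2-fold in opposite directions, beside 0.435% of all probe sets. In 35 of the 36 both *hd1-3* arrays lay above, or both below, the wild type arrays of both day lengths, as did 80 of the 143 bright members and 29.1% of all such probe sets. The 36 were picked by folds past 2-fold with the same sign, which favours such a split beforehand, so 29.1% is not a like share. This also holds where single genes of the 36 are said below to split by genotype. Since the listing may have used this contrast, these shares are given side by side only.

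The median log2 fold of the members was -0.08 under SD and -0.07 under LD condition, against -0.01 and -0.05 over all probe sets. Among the 36, the median size of the log2 fold was 1.77 under SD and 1.78 under LD condition. The SD and LD folds lay within 0.5 of each other in 22 of them and over 1 apart in 9, with the larger fold under LD condition in 21 and under SD condition in 15. All 4 arrays were at 100 or more for 23 of the 36. Names ending in _s_at or _x_at were found for 6 of the 36, whose signal can include other genes. They were LOC_Os06g11830, LOC_Os06g15620, LOC_Os06g18000, LOC_Os06g21240, LOC_Os06g35200 and LOC_Os06g51050. With signals under 100 raised to 100, 31 of the 36 stayed past 2-fold in both day lengths, and 12 were past 5-fold in both before that floor, 6 higher and 6 lower.

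**Figure D1:**
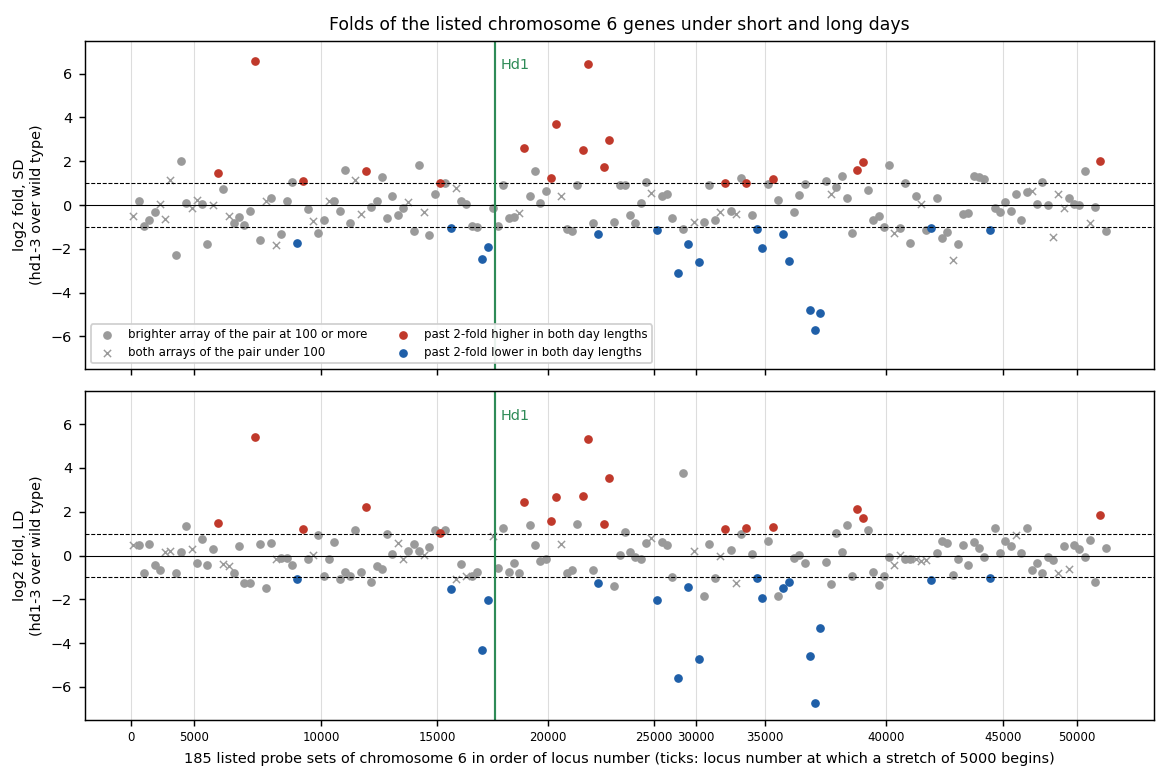
Log2 fold of hd1-3 over wild type for the 185 members in order of locus number, under SD (upper panel) and LD (lower panel) conditions. Red and blue points are the 18 members past 2-fold higher and the 18 lower in both day lengths, grey points are the others, crosses are pairs with both arrays under 100, dashed lines mark 2-fold and the green line marks the place of Hd1. Of the 36 coloured points 28 lie from locus number 15000 to 39999.

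Along the chromosome the 36 were not spread evenly. From LOC_Os06g15000 to LOC_Os06g39999, 28 of the 75 members with both pairs bright were past 2-fold in the same direction, against 8 of 68 outside it. By stretches of 5000 locus numbers, the count was 0 of 7 bright members at the start of the chromosome, 4 of 17 from 5000 and 1 of 15 from 10000. It was then 5 of 17 from 15000, 7 of 18 from 20000, 3 of 7 from 25000, 5 of 11 from 30000 and 8 of 22 from 35000. Beyond 40000 it was 2 of 16, 0 of 8 and 1 of 5. The directions were mixed between neighbouring stretches: from 20000 to 24999 there were 6 higher and 1 lower, from 25000 to 29999 none higher and 3 lower, and from 35000 to 39999 3 higher and 5 lower.

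To see whether this pattern rested on the listing, all 1765 probe sets that the reference tables place on chromosome 6 were ordered in the same way, listed or not. Genes without a locus number were placed by their rank between listed neighbours. From 15000 to 39999, 43 of 364 bright probe sets (11.8%) were past 2-fold in SD and LD with the same sign, 21 higher and 22 lower. On the rest of the chromosome it was 14 of 939 (1.49%), and on the other 11 chromosomes together 211 of 15095 (1.40%). Without the listed rows it was 24 of 314 (7.64%) from 15000 to 39999 and 8 of 893 (0.896%) on the rest. Listed means present in the available rows, part of a longer table. Genes called unlisted, here and below, may stand in its other rows, so these counts are not shown to be free of the listing. Of the 1303 bright probe sets placed on chromosome 6, 0 were past 2-fold in opposite directions, against 32 of the 15095 on the other 11 chromosomes. The 0 was 1 with quantile normalization and 40 without the filter on low signals, and it leaves out LOC_Os06g27860, described below, which has no gene in the platform table. The limits of this middle part were drawn with the folds known, so the contrast is a description.

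By stretch, the share over all placed probe sets was 0 of 180 before 5000, 2.92% from 5000 and 2.55% from 10000. It was 14.7% from 15000, 12 of 92 from 20000, 8.70% from 25000, 15.7% from 30000 and 8.41% from 35000. From 40000 it was 1.23%, from 45000 0.524% and from 50000 2.60%. The change in level was therefore found between adjacent stretches at 15000 and at 40000, and *Hd1* lies in the first of the 5 raised stretches. Of the other chromosomes, chromosome 11 had 40 of 704 (5.68%) and the remaining 10 lay between 0.652% and 1.92%.

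A test across the 4 arrays was run on the same probe sets. Limma, fitted to genotype with day length as a further term and with Benjamini-Hochberg adjustment at 0.05, called 583 of 28133 probe sets (2.07%) over the whole array. It called 45 of 390 (11.5%) from 15000 to 39999, 18 of 1013 (1.78%) on the rest of chromosome 6 and 274 of 16337 (1.68%) on the other 11 chromosomes. Without the listed rows it called 18 of 336 (5.36%) in the middle part and 11 of 951 (1.16%) on the rest. This fit has 2 arrays per genotype. A gene's own error comes from how far its folds in the 2 day lengths lie apart, with 1 residual degree of freedom. Limma then draws this error toward a trend with signal over all probe sets tested. An unequal response in the day lengths still counts as noise. Without the day length term it called 9 of 390 in the middle part and 2 of 1013 on the rest.

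**Figure D2:**
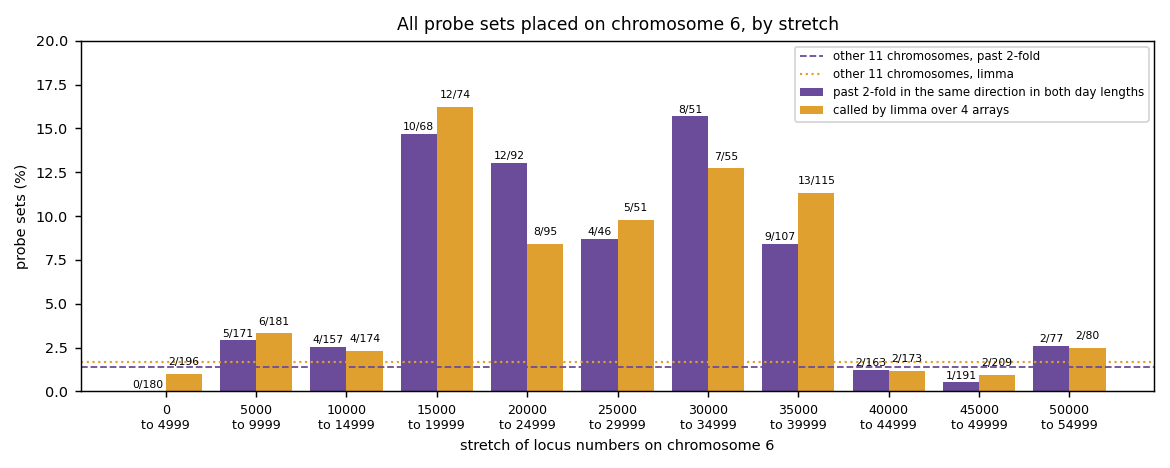
Share of all probe sets placed on chromosome 6, by stretch of 5000 locus numbers, that were past 2-fold with the same sign in both day lengths (purple) or called by limma over 4 arrays (yellow), with called over tested probe sets above each bar. The 5 stretches from 15000 to 39999 reach 8.41% to 15.7% by fold, and the dashed and dotted lines mark 1.40% and 1.68% on the other 11 chromosomes.

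The members nearest to *Hd1* were mostly lower in *hd1-3* on the side before it. LOC_Os06g16300, annotated as a BAK1-type receptor kinase, had signals of 2233 and 2002 in wild type and 407 and 101 in *hd1-3*, under SD and LD condition. BAK1 is known in Arabidopsis as the co-receptor of the brassinosteroid receptor. LOC_Os06g16330 (*OsSERL2*), with the same annotation, read 481 and 536 in wild type and 127 and 132 in *hd1-3*. The genotypes did not overlap for either kinase, and the log2 folds were -2.45 and -4.29 for the former and -1.91 and -2.01 for the latter.

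Next to these kinases, LOC_Os06g16270, a heat shock factor binding protein, which binds the transcription factors of the heat stress response, was at 1163 and 1191 in wild type and 596 and 618 in *hd1-3*. Its log2 folds of -0.96 and -0.95 stayed just inside 2-fold. For LOC_Os06g16290, an L7Ae ribosomal protein, the signals were 710 and 921 in wild type and 350 and 543 in *hd1-3* (log2 folds -1.02 and -0.76). In both genes the 4 arrays split by genotype without overlap.

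On the other side, LOC_Os06g16420, an amino acid transporter, read 8984 and 8108 in wild type and 4644 and 5493 in *hd1-3* (log2 folds -0.95 and -0.56), again with no overlap. Between it and LOC_Os06g16330, LOC_Os06g16350, a peroxidase, had signals of 113 and 39.0 in wild type and 104 and 73.2 in *hd1-3*. Peroxidases act on cell wall components. This one lay within 2-fold under SD condition, and with both LD arrays under 100 no LD fold is read. The 3 unlisted genes between LOC_Os06g16330 and LOC_Os06g16420 with a bright probe set past *Hd1* (LOC4340748, LOC4340749 and LOC4340750) also stayed within 2-fold. Their log2 folds lay from -0.14 for LOC4340750 under SD to 0.74 for LOC4340749 under LD condition.

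Before LOC_Os06g16270 the members were mixed. LOC_Os06g15620 (*GASR7*), of the gibberellin-regulated GASA peptides, had signals of 181 and 276 in wild type and 369 and 569 in *hd1-3* (log2 folds 1.02 and 1.04). LOC_Os06g15910, a potassium transporter, was likewise higher, at 320 and 216 in wild type and 638 and 486 in *hd1-3* (0.99 and 1.16), just short of 2-fold under SD condition. The 4 arrays of both genes split by genotype, with the *hd1-3* arrays above.

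In contrast, LOC_Os06g16030, of the amidases, which split amide bonds, was lower, with 151 and 278 in wild type against 71.4 and 94.8 in *hd1-3*. With the floor, its difference was at least 1.51-fold and 2.78-fold, SD then LD. LOC_Os06g16060, with a RING-type zinc finger, lay at 313 and 238 in wild type and 350 and 185 in *hd1-3*, within 2-fold and with overlap of the genotypes. The listed probe set of LOC_Os06g16240, a protein of unknown function, read 119 and 55.1 in wild type and 121 and 27.9 in *hd1-3*. LOC_Os06g16050, a CACTA transposon protein, remained below 100 on all arrays, so no fold is read from it.

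Unlisted genes past 2-fold lay between these members. LOC4340738, next to LOC_Os06g16270, went from 558 and 601 in wild type to 52.4 and 42.0 in *hd1-3*, at least 5.58-fold and 6.01-fold lower. LOC4340717, after LOC_Os06g15620, went from 328 and 327 to 25.1 and 26.3, at least 3.28-fold and 3.27-fold lower. LOC4340753, beyond LOC_Os06g16420, went from 265 and 235 to 40.4 and 11.5, at least 2.65-fold and 2.35-fold lower. The *hd1-3* signals of all 3 were under 100. In reference order, the genes with a bright probe set directly beside each of these 3 lay within 2-fold. Beyond LOC_Os06g16270, however, LOC4340738 was followed by LOC_Os06g16290 and the lower kinases LOC_Os06g16300 and LOC_Os06g16330.

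**Figure D3:**
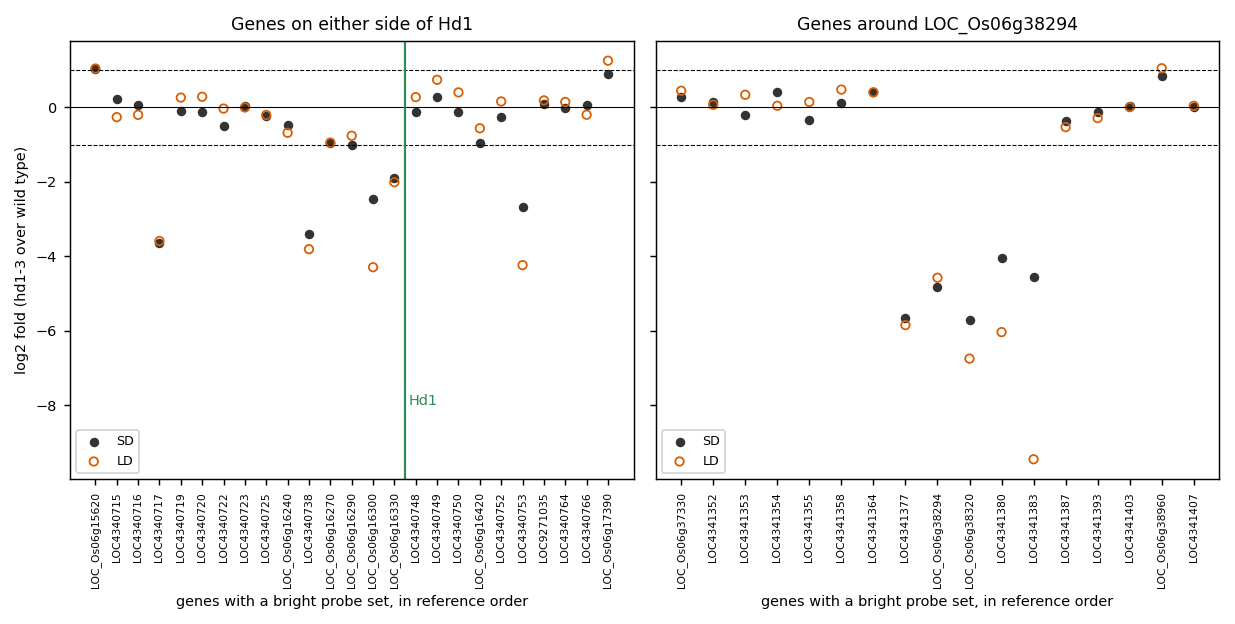
Log2 fold of hd1-3 over wild type under SD (filled) and LD (open) conditions for neighbouring genes with a bright probe set, in reference order, around Hd1 (left; the green line marks its place) and around LOC_Os06g38294 (right). Each gene is shown by its probe set of the highest mean signal, and dashed lines mark 2-fold. On the right, 5 neighbouring genes have log2 folds of -4.05 or below, 4 of them with hd1-3 signals under 100, and the genes next to them on either side, LOC4341364 and LOC4341387, stay within 2-fold. LOC_Os06g38960, further along, is past 2-fold higher under LD condition (1.05).

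The longest run of neighbouring genes with one direction lay around LOC_Os06g38294, far from *Hd1*. LOC_Os06g38294 encodes a PTR2 peptide transporter, of the family that moves short peptides into cells. Its signals were 1452 and 1476 in wild type and 50.6 and 61.0 in *hd1-3*, so that it was at least 14.5-fold and 14.8-fold lower. Both *hd1-3* arrays were under 100 while the wild type arrays differed little between the day lengths. The next gene, LOC_Os06g38320, a protein of unknown function, read 4414 and 2806 in wild type and 84.1 and 25.2 in *hd1-3*, at least 44.1-fold and 28.1-fold lower. A further probe set of LOC_Os06g38320 gave 798 and 471 in wild type and 155 and 96.0 in *hd1-3*, lower by 5.14-fold (SD) and by at least 4.71-fold (LD). The gene was thus lower by 2 probe sets, with unequal sizes.

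In reference order, the unlisted genes LOC4341377 before this pair and LOC4341380 and LOC4341383 after it were lower as well. LOC4341377 went from 22329 and 26817 in wild type to 446 and 465 in *hd1-3* (log2 folds -5.64 and -5.85). LOC4341380 had 483 and 654 in wild type and 28.1 and 8.99 in *hd1-3*, and LOC4341383 had 1342 and 1803 in wild type and 55.7 and 1.58 in *hd1-3*. The *hd1-3* signals of these last 2 genes were under 100 on each array. The neighbours on the outer sides, LOC4341364 and LOC4341387, stayed within 2-fold (0.42 and 0.40 for the former, -0.37 and -0.53 for the latter). LOC_Os06g38480, a retrotransposon protein a little further on, had 640 and 689 in wild type and 19.8 and 69.3 in *hd1-3*, at least 6.40-fold and 6.89-fold lower. It has no gene in the platform table and so no place in this order.

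Over the chromosome, 1116 genes had a bright probe set, and 47 were past 2-fold with the same sign in both day lengths. Of these 47, 13 lay in 5 runs of at least 2 neighbours. Neighbours are adjacent among the 1116 genes, so dim genes and members without a gene in the platform table are skipped. The pair LOC_Os06g35960 and LOC_Os06g35970, described below, is not counted because the former has no gene in the platform table. Besides the 5-gene run and the kinases LOC_Os06g16300 and LOC_Os06g16330, 2 runs of higher genes lay in the stretch from 20000. The remaining run was of the unlisted genes LOC4341142 and LOC4341168, both lower in *hd1-3*. No run was of mixed direction by construction.

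The higher runs held glycine-rich proteins, which in plants are often parts of the cell wall. LOC_Os06g21240 had signals of 190 and 170 in wild type and 1104 and 1120 in *hd1-3* (log2 folds 2.53 and 2.72). LOC_Os06g21270 had 35.3 and 153 in wild type and 3192 and 6111 in *hd1-3*, above wild type by at least 31.9-fold (SD) and by 39.8-fold (LD). In both genes the arrays fell into 2 levels by genotype. Their neighbour with the same annotation, LOC_Os06g21210, had 241 and 95.3 in wild type and 453 and 257 in *hd1-3*. Its log2 fold was 0.91 under SD condition, and under LD condition it was at least 2.57-fold higher.

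Further probe sets of these glycine-rich genes gave smaller folds. For LOC_Os06g21270 a further probe set had 238 and 242 in wild type and 629 and 668 in *hd1-3* (1.40 and 1.46). For LOC_Os06g21240 it was 1.50 and 1.15. For LOC_Os06g21210, a further probe set was past 2-fold in both day lengths, but 2 others with signals from 21442 to 27846 on the 4 arrays gave -0.02 and 0.10, and 0.21 and 0.02. Some of these probe sets carry the suffix that the array maker uses for probes matching several genes, so the signal of one copy can stand for another in such a family.

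The other higher run was of LOC_Os06g21690, a protein of unknown function, and LOC_Os06g21820, annotated as a jasmonate O-methyltransferase, an enzyme that makes the volatile methyl jasmonate. The former had 516 and 469 in wild type and 1738 and 1269 in *hd1-3* (log2 folds 1.75 and 1.43). The latter had 102 and 107 in wild type and 798 and 1253 in *hd1-3* (2.96 and 3.53). Wild type arrays differed little between the day lengths in both genes, and the *hd1-3* arrays lay well above them. In the same stretch LOC_Os06g20200, annotated as the gibberellin receptor relative GID1L2, had 102 and 310 in wild type and 1321 and 1979 in *hd1-3* (3.68 and 2.67). GID1 proteins bind gibberellin in the nucleus. LOC_Os06g20090 (*NUP155*), a subunit of the nuclear pore, had 286 and 334 in wild type and 665 and 1007 in *hd1-3* (1.21 and 1.59). The lower gene of this stretch, LOC_Os06g21550, with a thioredoxin domain, had 2637 and 3798 in wild type and 1052 and 1570 in *hd1-3* (-1.32 and -1.27).

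The 4 kinases of the 36, which transfer phosphate to proteins, were split by direction. Besides the lower pair beside *Hd1*, LOC_Os06g18000 had 363 and 335 in wild type and 2204 and 1814 in *hd1-3* (log2 folds 2.60 and 2.43). Its further probe set had 77.3 and 56.9 in wild type and 1488 and 1356 in *hd1-3*, at least 14.9-fold and 13.6-fold higher, so both probe sets were higher in *hd1-3* on each array. LOC_Os06g35200, a receptor-like kinase, was at 199 and 177 in wild type and 450 and 441 in *hd1-3* (1.17 and 1.31). Of all 13 members annotated as kinases, 10 were bright in both pairs. Of the 13, 2 were higher, 2 lower, 1 was past 2-fold under SD and 3 under LD condition alone. Their median log2 folds were -0.11 and -0.14. Counts by annotation, here and below, stand beside 25.2% of bright members and 2.53% of all probe sets for both day lengths. For 1 day length, called in the other or not, all probe sets gave 9.94% (SD) and 8.39% (LD). No group is read from its count.

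LOC_Os06g27760 (*OsMSRB1*), a methionine sulfoxide reductase, which repairs oxidized methionine, went from 10398 and 5357 in wild type to 1195 and 109 in *hd1-3*. Its log2 folds were -3.12 and -5.60, and those of its further probe set -0.87 and -1.22. The direction was shared by both probe sets, and the size was not. LOC_Os06g30179, a cytochrome P450, of the monooxygenases of secondary metabolism, had 987 and 535 in wild type and 164 and 19.1 in *hd1-3*, with a log2 fold of -2.58 under SD and at least 5.35-fold lower under LD condition. Of the 6 members annotated as P450, all bright, it was alone in passing 2-fold in both day lengths, with 1 more past under SD and 1 under LD condition alone. LOC_Os06g39780, another P450, lay just short, at 466 and 789 in wild type and 236 and 408 in *hd1-3* (-0.98 and -0.95).

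Of 6 transporters, all bright, 1 was higher and 2 were lower in both day lengths. The lower ones were LOC_Os06g38294 and LOC_Os06g34830, an amino acid permease, which had 162 and 408 in wild type and 41.3 and 104 in *hd1-3*. With the floor, the permease was at least 1.62-fold lower under SD and 3.92-fold lower under LD condition. The higher one, LOC_Os06g30950, had 1220 and 1827 in wild type and 2452 and 4279 in *hd1-3* (log2 folds 1.01 and 1.23), and its genotypes did not overlap. The median log2 fold of the transporters was -1.15 under SD and -0.33 under LD condition, against -0.01 and -0.05 over all probe sets.

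LOC_Os06g39520, a chloroplast acyl-ACP thioesterase, which releases fatty acids at the end of their synthesis, had 1165 and 1407 in wild type and 4511 and 4609 in *hd1-3* (log2 folds 1.95 and 1.71). LOC_Os06g33930, with a PAP2 phosphatase domain, had 579 and 541 in wild type and 1174 and 1280 in *hd1-3* (1.02 and 1.24). Neither gene had overlapping genotypes. LOC_Os06g43044, a GDSL lipase, had 138 and 101 in wild type and 66.0 and 46.5 in *hd1-3*, so close to the floor that its bounds were 1.38-fold (SD) and 1.01-fold (LD), and no LD difference is read.

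LOC_Os06g25010, a glycosyl hydrolase, of the enzymes that split sugar bonds, had 369 and 919 in wild type and 166 and 226 in *hd1-3* (log2 folds -1.15 and -2.02). LOC_Os06g44180, of the NAD-dependent epimerases, had 1314 and 1942 in wild type and 598 and 939 in *hd1-3* (-1.13 and -1.05). Its neighbour with the same annotation, LOC_Os06g44170, had 238 and 536 in wild type and 535 and 506 in *hd1-3* (1.17 and -0.08), so this adjacent pair went in opposite directions under SD condition. LOC_Os06g51050 (*CHIT7*), a chitinase, an enzyme that cuts the chitin of fungal walls, had 81.5 and 533 in wild type and 331 and 1925 in *hd1-3*, at least 3.31-fold higher under SD condition and with a log2 fold of 1.85 under LD condition. It was the 1 gene of the 36 in which the genotypes overlapped over the day lengths, as the LD array of wild type lay above the SD array of *hd1-3*. Its further probe set was at least 2.09-fold higher under SD condition and gave a log2 fold of 1.31 under LD condition.

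LOC_Os06g07350 (*OsC3H40*), annotated as an RNA-binding protein, had 43.3 and 84.9 in wild type and 4246 and 3606 in *hd1-3*, at least 42.5-fold and 36.1-fold higher. It lay outside the middle part, with both wild type arrays under 100. LOC_Os06g08570, of the PPR proteins, which bind organelle RNA, had 740 and 641 in wild type and 219 and 303 in *hd1-3* (log2 folds -1.75 and -1.08). LOC_Os06g34440, a dnaJ co-chaperone, had 346 and 346 in wild type and 161 and 168 in *hd1-3* (-1.10 and -1.04).

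LOC_Os06g35960, with the DNA-binding domain of heat stress transcription factors, had 1456 and 681 in wild type and 589 and 241 in *hd1-3* (log2 folds -1.30 and -1.49). Its neighbour LOC_Os06g35970, annotated as meiosis 5, had 1107 and 1893 in wild type and 185 and 812 in *hd1-3* (-2.57 and -1.22). Both were lower without overlap of the genotypes. Of 15 members with transcription factor terms, 12 of them bright, LOC_Os06g35960 alone passed 2-fold in both day lengths, beside 2.53% of all probe sets. A further 7 passed under SD and 1 under LD condition alone. The 9.94% (SD) and 8.39% (LD) of all probe sets also count calls shared with the other day length, so they are not a like share.

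Of 8 transposon proteins, 6 of them bright, LOC_Os06g38480 was lower, and LOC_Os06g39460, of the CACTA class, was higher, with 185 and 65.1 in wild type and 556 and 287 in *hd1-3*. The latter was higher by 3.01-fold (SD) and by at least 2.87-fold (LD). LOC_Os06g11830, with the dimerisation domain of hAT transposases, had 53.5 and 54.1 in wild type and 161 and 256 in *hd1-3*, at least 1.61-fold and 2.56-fold higher. Its further probe set gave log2 folds of 0.21 and 0.13, and it is the member that the reference tables place on chromosome 10.

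The remaining genes of the 36 lay in the outer or middle stretches. LOC_Os06g08890, a glutamate receptor, of the plant family of cation channels, had 87.1 and 81.3 in wild type and 188 and 188 in *hd1-3*, at least 1.88-fold higher under both conditions. LOC_Os06g06210, of unknown function, had 203 and 200 in wild type and 558 and 566 in *hd1-3* (log2 folds 1.46 and 1.50), and its further probe set gave 1.23 and 1.21. LOC_Os06g28194, also of unknown function, had 2178 and 3166 in wild type and 631 and 1174 in *hd1-3* (-1.79 and -1.43). None of these 3 had overlapping genotypes. Of all 37 members of unknown function, 24 were bright, with 2 higher, 2 lower, 4 past 2-fold under SD and 5 under LD condition alone.

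**Figure D4:**
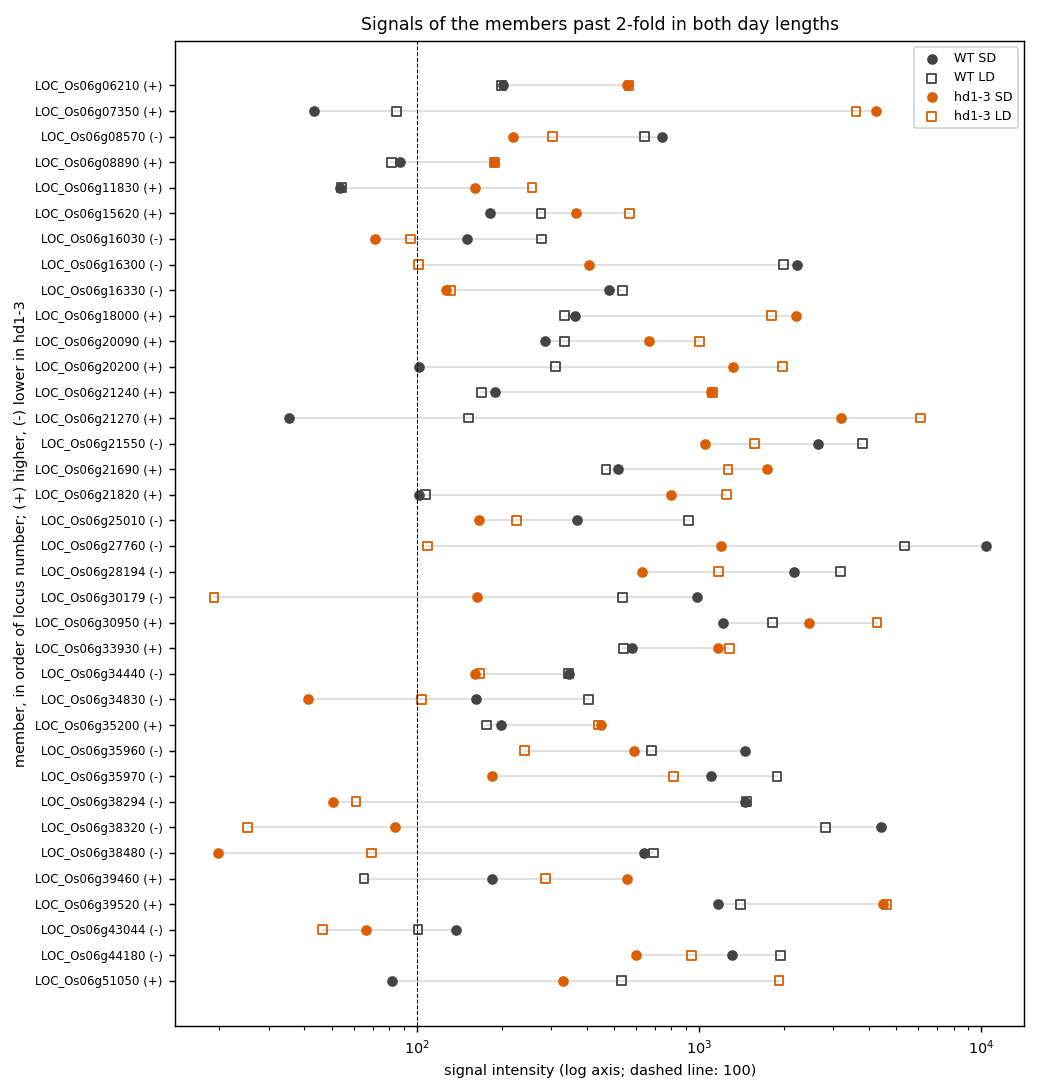
Signal intensity on each of the 4 arrays (log axis) for the 36 members past 2-fold with the same sign in both day lengths, in order of locus number. Grey symbols are wild type, orange symbols hd1-3, circles SD, squares LD, and the dashed line marks a signal of 100. In 35 of the 36 the orange symbols lie on one side of both grey ones, the exception being LOC_Os06g51050. The rule by which the 36 were picked favours such a split beforehand.

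Second probe sets gave a check of direction within the same arrays. Of the 36, 25 had a gene in the platform table and 11 of these had a further probe set, 11 in all. In the 10 that were bright in both pairs, all 10 had the signs of the listed probe set under both conditions, and 6 were past 2-fold in both. For LOC_Os06g15620 the further probe set gave 1.21 and 0.37, and for LOC_Os06g21690 0.66 and 0.71. The dim one, of LOC_Os06g28194, did not share the signs. Both probe sets of a gene are read from the same RNA, so they are no replicates of the plants.

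LOC_Os06g27860, annotated as poor homologous synapsis 1, known in maize for its part in chromosome pairing at meiosis, was the single member past 2-fold in opposite directions. Its signals were 219 and 8.08 in wild type and 103 and 123 in *hd1-3*, SD then LD. Under SD condition it was lower in *hd1-3* (log2 fold -1.07), and under LD condition higher (3.78). The LD value rests on the wild type signal of 8.08, and with the floor the LD difference was at least 1.23-fold.

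Some members were past 2-fold in 1 day length alone. Of the 25 called under LD condition alone, 13 higher and 12 lower, 21 had an SD fold of the same sign, with median sizes of 1.25 under LD and 0.51 under SD condition. Of the 35 called under SD condition alone, 17 higher and 18 lower, 18 had an LD fold of the same sign, with median sizes of 1.28 and 0.45. Of the 51 bright members past 2-fold in neither, 32 had the same sign in both. Over all probe sets called in 1 day length alone, the sign was shared by 862 of 1479 (58.3%) for LD and by 1101 of 1879 (58.6%) for SD. Whether these shares differ was not tested.

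Of the 35 members past 2-fold under SD condition alone, 11 lay in the stretch from 40000 to 44999, 5 higher and 6 lower. Their LD folds ranged in size from 0.04 to 0.66 on the log2 scale, and in 8 of the 11 an SD array was under 100. Examples chosen after their values were seen are LOC_Os06g43350, a P450, with 1071 and 244 in wild type and 314 and 215 in *hd1-3* (log2 folds -1.77 and -0.18), and LOC_Os06g44010 (*WRKY28*), of the WRKY transcription factors of defence. *WRKY28* had 125 and 1047 in wild type and 319 and 1618 in *hd1-3* (1.34 and 0.63). In both genes the 2 day lengths differed more in wild type than the genotypes did under LD condition. Over all probe sets placed in that stretch, 9 of 169 (5.33%) were past 2-fold under SD condition. The 9.94% of the array beside it also counts probe sets without a placed gene. All 9 were members, and of the 157 bright probe sets there that are not members 0 were past it. The SD calls among placed probe sets of this stretch thus all lay in listed genes. The rule by which the listing chose them is not known here.

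The placed probe sets were also counted in each day length alone, beside the 9.94% (SD) and 8.39% (LD) of the whole array. From 15000 to 39999 the share past 2-fold by stretch lay between 10.2% and 19.2% (SD) and between 14.6% and 18.9% (LD). Under SD condition the stretches from 25000 (10.2%) and from 35000 (11.1%) were close to the share of the array. On the other stretches the share past 2-fold lay between 2.51% and 8.98% (SD) and between 0.526% and 6.71% (LD). The share of the array also counts probe sets without a placed gene, so it is not a like baseline. Past 2-fold in both day lengths with the same sign were 2.53% of the array and 1.40% on the other 11 chromosomes.

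Between the day lengths, 5 of the 36 were more than 2-fold higher and 2 more than 2-fold lower under LD than SD condition in wild type. In *hd1-3* the counts were 4 and 5. The hour of harvest differed with the day length, so these counts are levels only.

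Close to the 2-fold threshold, the members just inside were LOC_Os06g30950, LOC_Os06g15620, LOC_Os06g33930, LOC_Os06g34440 and LOC_Os06g44180, with a smaller log2 fold of 1.01 to 1.05 in size. Just outside were LOC_Os06g16270, LOC_Os06g39370, LOC_Os06g39780, LOC_Os06g33810 and LOC_Os06g15910, with 0.95 to 0.99. Of these, LOC_Os06g39370, an F-box protein with kelch repeats, of the proteins that mark others for degradation, had 2881 and 1934 in wild type and 1189 and 1003 in *hd1-3*. LOC_Os06g33810, a zinc finger protein, had 649 and 777 in wild type and 1536 and 1522 in *hd1-3*. Each of these 10 genes split by genotype without overlap, as did 29.1% of all probe sets with both pairs bright. They were picked by folds of the same sign close to 2-fold, which favours such a split beforehand.

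The counts of the other annotation groups stand beside the shares of all probe sets given above. Of 5 carboxyl methyltransferases, all bright, LOC_Os06g21820 was higher in both day lengths and 3 were past 2-fold under SD condition alone. In the nearby pair LOC_Os06g13470 and LOC_Os06g13560 of that group, the former had 107 and 185 in wild type and 47.0 and 267 in *hd1-3*, with a bound of 1.07-fold under SD condition, so no direction is read there. The latter had 1162 and 1790 in wild type and 4068 and 2081 in *hd1-3* (1.81 and 0.22). These enzymes methylate small acids such as salicylate and jasmonate. Of 7 members acting on ribosomes or RNA, 6 bright, 1 was higher and 1 lower. None of 4 F-box and 3 disease resistance members passed in both day lengths, and 1 of each passed under SD condition alone.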

How the data were processed

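Leaf RNA of 4 groups was hybridised to 4 Affymetrix Rice Genome Arrays, 1 per group. The authors deposited linear intensities for 57381 probe sets, made from the array scans by the MAS 5.0 algorithm. The software version is not stated, and no detection calls were used. Of these, 187 controls were left out. The number of arrays limits the precision, and p-values measure only the spread between these 4 arrays.

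The members came from the 1996 rows of the supplementary listing used here, part of a longer table. Its fold columns hold the study's own comparisons and were not used. Members, gene lists and tests were chosen with earlier results of these data known. Genes are named if they were past 2-fold in both day lengths, lie around *Hd1*, share an annotation with a near neighbour, or lie closest to the threshold; the few others are marked as such.

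Folds used log2 with 1 added to each signal. Genes were placed by locus number or, without one, by RefSeq gene order (assembly ASM3414082v1, used for names, chromosome and order only) between 124 listed genes, of which 0 were out of order. The platform table gave 1 gene for 22436 probe sets. The tables used here hold no product text, so cell type markers were matched by symbol and synonym, which found no pollen marker. Limma 3.58.1 in R 4.3.3 (lmFit, eBayes with trend) was fitted to the 28133 probe sets with an array at 100 or more, and its adjusted p-values were counted over all chromosome 6 probe sets only. Limma was tested on simulated arrays, and the counting of folds on made-up signals with known folds. The placing of genes was not tested in this way. Python 3.11.15, pandas 2.3.3, numpy 2.4.6 and matplotlib 3.10.9 did the rest. Alternatives were 32 added, quantile normalization, median scaling, no filter, a filter at 500, 1 probe set per gene, no day length term, each array left out, and, chosen after seeing the data, signals under 100 raised to 100.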

Additional observations from a re-analysis of the deposited data

Results flagged for a closer look

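LOC_Os06g27860, annotated as poor homologous synapsis 1, stood out because its difference between *hd1-3* and wild type had opposite signs in the day lengths. The log2 fold was -1.07 under SD and 3.78 under LD condition. With 32 added to each signal the LD fold was 1.95. Each value rests on 1 array against 1 array, so the difference between the day lengths was not tested.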

How the results depend on the processing

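The labels carry no replicate numbers, so the only pairing is by day length, which limma's day length term makes. The count of 36 members past 2-fold with one sign under SD and LD was 24 to 37 under the alternatives. With a filter at 500 in place of 100, 33 members (SD) and 36 members (LD) were past 2-fold, and 30 in place of 57 placed chromosome 6 probe sets were past it in both. Without a filter those probe sets were 93. The share in the middle part, 11.8%, ranged from 9.89% to 11.8% and that of the rest, 1.49%, from 0.988% to 2.68%. Limma's 63 calls on chromosome 6 became 11 without the day length term, of which 9 lay in the middle part. Without that term and with each array left out in turn they were 10 (without *hd1-3* LD) to 15 (without wild type LD), with 14 without wild type SD and 11 without *hd1-3* SD, and the middle part held 9 to 12 of them; the lone array of a group is then assumed to vary like the others. None of 222 folds of the 37 members past 2-fold in both day lengths changed sign with 32 added, quantile normalization or median scaling. Of these folds 16 moved by more than the spread, all of them with 32 added. Where an array lay under 100, the fold is known only as a lower bound.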
